A study of Mus musculus with 12 samples.

Results

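The genes examined here are the protease inhibitors of mice that belong to the serpin, cystatin, WAP domain (*Wfdc*), inter-alpha-trypsin inhibitor heavy chain (*Itih*) and Kunitz (*Spint*) families. They were chosen by gene symbol, as the symbols of these families whose FPKM was 1 or more in 1 or more of the 12 libraries. FPKM counts the fragments of a gene relative to transcript length and to all fragments mapped. Of 101 symbols of these families in the tables, 31 were members by this rule, among 25897 gene names listed in either experiment and 14375 that reached the same level. The members were 20 of 62 serpins, 3 of 11 cystatins, 4 of 18 WAP genes, 2 of 5 *Itih* genes and 2 of 5 *Spint* genes. *Slpi* itself, also a WAP domain inhibitor, and the *Timp* genes lie outside the rule.

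The first experiment compared 3 libraries of vehicle-treated with 3 libraries of PTH-treated osteoblasts from female Col2.3-ECFP mice, in which a fragment of the type I collagen promoter drives a cyan reporter in mature osteoblasts. The mice were 12 weeks old when treatment began and received PBS or human PTH(1-34), the N-terminal fragment of parathyroid hormone, at 40 µg/kg under the skin on 5 days per week for 3 weeks. Cells that carried the reporter and lacked 7AAD, lineage markers and CD45 were sorted 24 h after the last injection. The second experiment compared 3 libraries of MC3T3-E1 cells, a clonal osteoblastic line from mouse calvaria, infected with an empty pMX-IRES-Puro retrovirus (mock) with 3 libraries of cells infected with pMX-Slpi-IRES-Puro (Slpi). The overexpressed gene fitted its labels. *Slpi* had an FPKM of 377, 396 and 386 in mock and of 2105, 1973 and 1848 in Slpi cells. It was also higher after PTH, at 1.64, 2.38 and 2.62 with vehicle and 37.5, 19.8 and 27.2 with PTH.

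Serpins inhibit mostly serine proteases. The protease cuts an exposed loop of the serpin, which then springs into its own sheet and leaves the protease trapped and distorted. Some serpins inhibit no protease, among them the collagen chaperone of the endoplasmic reticulum encoded by *Serpinh1*. Cystatins block the active site of cysteine proteases such as the cathepsins, Kunitz and WAP domains plug the active site of serine proteases, and the *Itih* heavy chains are joined to hyaluronan in the extracellular matrix. In bone, osteoblasts secrete and fold large amounts of collagen, and the matrix they lay down is cleaved by plasmin, cathepsins and matrix metalloproteases.

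Sums of FPKM per library were 400839 to 462460 in sorted osteoblasts and 541932 to 599746 in MC3T3-E1 cells, and 10795 to 11746 and 11049 to 11156 genes per library reached an FPKM of 1. The number of reads is unknown. From the step that 1 read makes in low values, the depth relative to replicate 1 of the control group was 0.793 to 1.38 and 0.868 to 1. *Col1a2*, which had an FPKM of 24544 or more in vehicle replicates 1 and 2 and is a defining gene of the sorted cells, is listed at 0 in vehicle replicate 3 and in all 3 PTH libraries, so a listed 0 in these tables can be a failed estimate. PTH replicate 3 stood apart. Of all 13004 genes tested it was above the other 5 sorted libraries in 27.0% and below them in 26.6%, against 8.36% to 21.2% and 8.50% to 22.3% in each of the other 5 libraries. It was above the other 5 in 11 of the 31 inhibitor genes and below them in 12. Summed FPKM of 11 neutrophil markers were 382, 477 and 442 with vehicle and 2406, 2003 and 709 with PTH, those of 11 T and NK cell markers were 126, 116 and 83.7 against 19.9, 19.5 and 1.49, and those of 13 epithelial markers, a list made after the values were seen, were 361, 539 and 459 against 263, 625 and 2.89. The 5 heart muscle markers summed to 1299 in PTH replicate 2 and to at most 9.74 in the other sorted libraries.

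A few of the members were abundant in both kinds of cell and carried most of the members' FPKM. The 31 members summed to 4653 to 5626 in vehicle-treated osteoblasts, which was 1.10% to 1.40% of all FPKM of a library, and to 7018 to 10588 with PTH, or 1.64% to 2.29%. The totals of vehicle replicates 1 and 2 hold 26655 and 24544 of *Col1a2*, which is listed at 0 in the other sorted libraries. Their shares are lower for that reason and are not fully comparable with the rest. The 3 most abundant, *Serpinf1*, *Serpinh1* and *Cst3*, held 87.4% to 90.5% of the sum in every sorted library. In MC3T3-E1 cells the members summed to 2137 to 2183 in mock and 2204 to 2397 in Slpi cells, with shares between 0.388% and 0.400% in all 6 libraries. *Serpinf1* was highest in each sorted library and *Serpinh1* in each MC3T3-E1 library.

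In vehicle-treated osteoblasts *Serpinf1*, which encodes the secreted non-inhibitory serpin PEDF, led at a mean FPKM of 2372 ± 235 (SD, n = 3). *Serpinh1* at 1084 ± 166 and *Cst3*, which encodes the secreted cathepsin inhibitor cystatin C, at 1025 ± 87.4 followed, with ranges that overlapped each other. *Serpine2*, which encodes protease nexin-1, an inhibitor of thrombin and plasminogen activators, stood at 92.7 ± 6.79. *Serpinb6a*, an intracellular serpin, at 61.8 ± 4.88 and *Cstb*, the intracellular cystatin B, at 54.5 ± 5.23 overlapped. *Serping1*, which encodes the C1 inhibitor of complement, stood at 40.6 ± 7.35. The ranges of *Serpinb1a*, *Cst7*, *Spint2* and *Wfdc2*, with means from 16.2 to 19.8, overlapped from each gene to the next. Another 19 members had vehicle means of 7.12 or less.

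In mock MC3T3-E1 cells the order was *Serpinh1* at 803 ± 7.02, *Serpine2* at 385 ± 10.8, *Cst3* at 314 ± 9.06, *Serpinf1* at 269 ± 5.60, *Cstb* at 210.3 ± 3.80, *Serpinb6a* at 125.7 ± 3.31, *Serpinb1a* at 11.2 ± 0.401 and *Serpinb9* at 8.73 ± 0.262 (SD, n = 3). The ranges of these genes did not overlap. Of the 31 members, 23 had a mean FPKM of at least 1 in vehicle-treated osteoblasts, 14 in mock cells and 13 in both. In all 6 MC3T3-E1 libraries 6 members were listed at 0, namely *Cst7*, *Serpina1a*, *Serpina1d*, *Serpina3b*, *Serpina3k* and *Wfdc6a*. *Wfdc12* was the reverse, at 3.80 to 5.33 in the MC3T3-E1 libraries and listed at 0 in all 6 sorted libraries. The 2 tables were scaled separately, so levels set across them are descriptions.

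**Figure D1:**
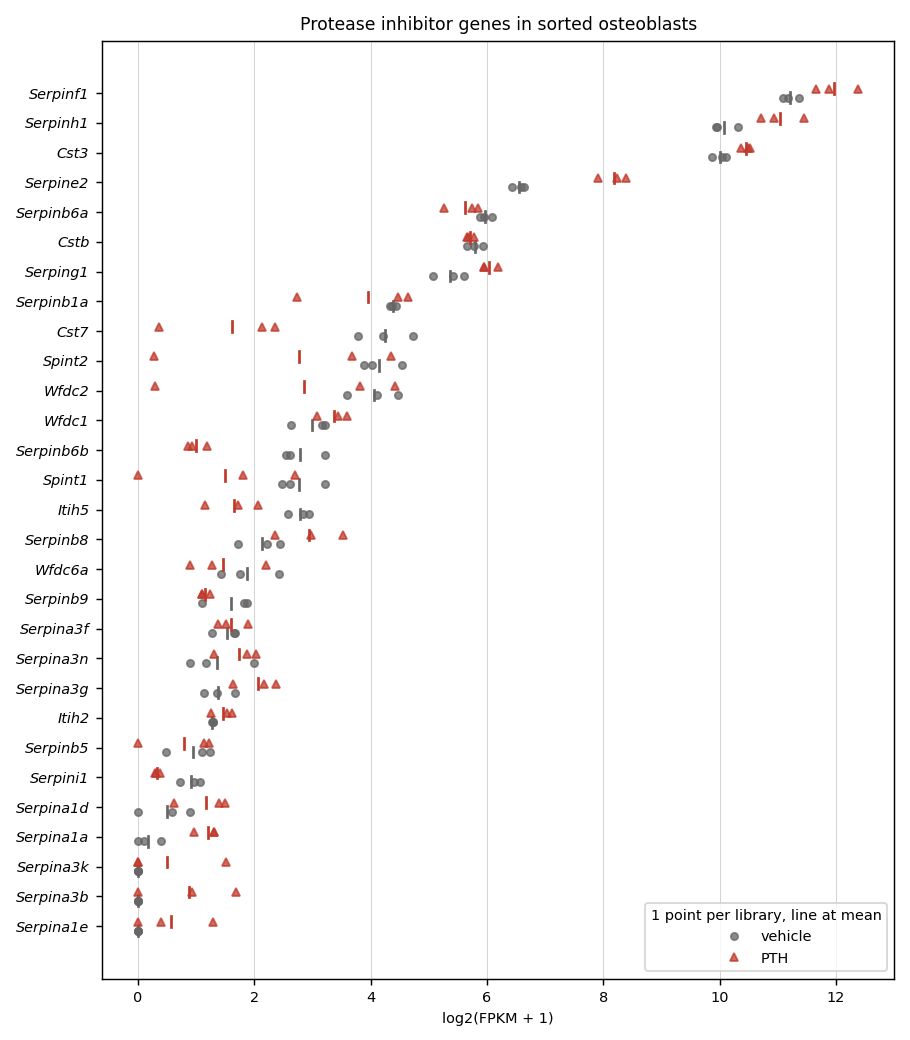
Level of 29 inhibitor genes tested in sorted osteoblasts, ordered by their vehicle mean, as log2(FPKM + 1) on the horizontal axis. Each point is 1 library (circles, vehicle; triangles, PTH) and the short line is the mean of 3 libraries on that scale; *Serpine2*, *Serpinh1*, *Serpinf1*, *Cst3* and *Serping1* lie higher with PTH without overlap, while 1 PTH library lies far to the left in *Spint2*, *Wfdc2*, *Spint1* and *Serpinb1a*.

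After PTH 6 inhibitor genes were higher and 3 lower. *Serpine2*, *Serpina1a*, *Serpinh1*, *Serpinf1*, *Serping1* and *Cst3* were higher, and *Cst7*, *Serpinb6b* and *Itih5* were lower, at an adjusted *p* under 0.05 (limma on log2(FPKM + 1), Benjamini-Hochberg over 13004 genes, 30 of them members). Over all genes tested the shares were 6.38% higher and 8.85% lower, and 15.2% in either direction, against 9 of the 30 members. *Serpina1a*, *Serpina1d*, *Serpina1e*, *Serpina3b* and *Serpina3k* reached an FPKM of 1 in PTH libraries only and *Serpini1* in vehicle libraries only, so their direction was set by the filter. For the 24 members that reached it in both groups the median log2 fold change was -0.01, against 0.01 for the 11688 genes that did so, and 12 of the 24 were positive, against 51.0%. The 9 called members include *Serpina1a*, whose direction the filter set. The shares over all genes likewise include genes admitted through 1 group. PTH and vehicle libraries did not overlap in 7 members that were higher and 5 that were lower, against 19.5% and 20.9% of all genes, 12 members in all against 40.4%. The test stood on few libraries. Without vehicle replicate 1, or without vehicle replicate 2, 0 of the 30 members passed in limma, and only 1 and 0 of all genes did, while 11 and 10 members kept an unadjusted *p* under 0.05. Without PTH replicate 1, *Serpine2* was called higher and *Cst7* and *Serpinb6b* lower, and without vehicle replicate 3, *Serpine2*, *Serpinh1* and *Cst3* were called higher and *Cst7*, *Serpinb6b* and *Itih5* lower. Leaving out PTH replicate 3 ended the calls of *Cst3* and *Serping1* (limma, adjusted *p* = 0.0504 and 0.0611) and added *Serpina3b* and *Serpina3g* (0.0421 and 0.0430), while leaving out PTH replicate 2 ended that of *Serpina1a* (0.0620) and added *Serpinb8* (0.0472).

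*Serpine2* (chr1:79794197-79861180 of mm10, minus strand) had the largest log2 fold change of the members called higher. Its FPKM was 95.2, 85.0 and 97.8 with vehicle and 298, 239.9 and 333 with PTH. Each PTH library was thus above every vehicle library, the ratio of the means was 3.14, and the log2 fold change was 1.63 ± 0.14 (SE; limma, adjusted *p* = 0.0131), which ranked 20 by size among the 830 genes called higher. Leaving out any 1 library gave a log2 fold change of 1.52 to 1.76.

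*Serpinh1* (chr7:99345376-99353239, minus strand), the collagen chaperone, had an FPKM of 995, 982 and 1276 with vehicle and 1962, 1676 and 2786 with PTH. The groups did not overlap, and PTH replicate 3 was the highest. Its log2 fold change was 0.96 ± 0.20 (SE; limma, adjusted *p* = 0.0289), a ratio of means of 1.98. *Serpinf1* (chr11:75409769-75422701, minus strand), whose loss in humans causes a brittle bone disease, stood at 2313, 2173 and 2631 against 3742, 3236 and 5339. PTH replicate 3 again lay above the other PTH libraries, and the log2 fold change was 0.76 ± 0.19 (SE; limma, adjusted *p* = 0.0416). Over the alternative fits given with the processing, the adjusted *p* of *Serpinf1* ran from 0.0177 to 0.637 (linear models in limma). No other member called after PTH reached so high a value. Without PTH replicate 3 the fold changes of *Serpinh1* and *Serpinf1* were 0.75 and 0.56 on the log2 scale, the lowest of their values with 1 library left out. Of 10 osteoblast markers tested, 1, *Alpl*, was higher and 0 lower, against 6.38% and 8.85% of all genes. *Alpl* was at 205, 185 and 216 with vehicle and 294, 261 and 378 with PTH (limma, adjusted *p* = 0.0398). *Bglap*, at 6963, 7290 and 8826 against 7978, 7017 and 14280, did not pass (limma, adjusted *p* = 0.485). PTH replicate 3 was highest in each marker but *Col1a2*, which is listed at 0 there. The part of osteoblast RNA content in these changes was not tested.

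*Serping1* (chr2:84765387-84775444, minus strand) rose from 47.4, 32.8 and 41.8 to 60.6, 60.8 and 71.6, with a log2 fold change of 0.66 ± 0.15 (SE; limma, adjusted *p* = 0.0342). *Cst3* (chr2:148871722-148875692, minus strand) stood at 1051, 927 and 1096 with vehicle and 1429, 1317 and 1461 with PTH. It had the smallest change of the 6, a log2 fold change of 0.45 ± 0.10 (SE; limma, adjusted *p* = 0.0324), and under quantile normalization the change was 0.22 with an adjusted *p* of 0.189 (limma), past no threshold. *Serpina1a* (chr12:103853589-103863562, minus strand), an alpha-1-antitrypsin gene made mainly by the liver, entered the test through its PTH libraries alone. It had an FPKM of 0.31, 0 and 0.077 with vehicle and of 1.48, 1.48 and 0.956 with PTH. Its log2 fold change was 1.03 ± 0.22 (SE; limma, adjusted *p* = 0.0291), at a level where a value rests on few reads. The 5 liver markers summed to at most 3.94 in the other 5 sorted libraries and to 19.9 in PTH replicate 3, which had the lowest *Serpina1a* of the PTH libraries. The part of such cells or RNA in this result was not tested.

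*Cst7* (chr2:150570415-150578944, plus strand) encodes cystatin F, an inhibitor of cathepsins in the granules of lymphoid and myeloid cells. Its FPKM was 25.3, 17.6 and 12.8 with vehicle and 4.13, 3.37 and 0.287 with PTH, and every PTH library was below every vehicle library. The log2 fold change was -2.62 ± 0.52 (SE; limma, adjusted *p* = 0.0253), and with a pseudocount of 0.1 in place of 1 it was -3.33 with an adjusted *p* of 0.0505. Of 11 T and NK cell markers 5 were tested and 3 were lower after PTH, *Cd3d*, *Cd3e* and *Cd3g*. *Cd2* and *Nkg7* did not pass, and *Nkg7* was at 4.40, 2.63 and 4.06 with vehicle and 8.09, 3.09 and 0.369 with PTH. The summed FPKM of the 11 ran from 83.7 to 126 with vehicle and from 1.49 to 19.9 with PTH, lowest in PTH replicate 3 as for *Cst7*, and *Cd3g* made up 60.4 to 97.5 of the vehicle sums. *Ncr1* was at 0 in all vehicle libraries. Of the mast cell and basophil markers *Cpa3* was lower, at 74.0, 70.7 and 46.7 against 6.18, 7.52 and 0.269 (limma, adjusted *p* = 0.0193). *Mcpt8*, *Kit*, *Gata2* and *Prss34* did not pass. Neutrophil markers went the other way, with 7 of 11 higher, where 6.38% of all genes were higher and 8.85% lower. The part of any of these cell types in the change of *Cst7* was not tested. In sorted bulk samples fewer cells of a type and less RNA per cell cannot be told apart.

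*Serpinb6b* (chr13:32965209-32979067, plus strand), an intracellular serpin, fell from 4.83, 8.30 and 5.10 to 1.27, 0.907 and 0.811. The groups did not overlap and the log2 fold change was -1.80 ± 0.22 (SE; limma, adjusted *p* = 0.0133). The T and NK cell marker sums given for *Cst7* apply here too, and their part was not tested. *Itih5* (chr2:10153571-10256529, plus strand), a hyaluronan-binding heavy chain, stood at 6.65, 6.15 and 4.96 with vehicle and 2.28, 3.18 and 1.23 with PTH. Its log2 fold change was -1.14 ± 0.24 (SE; limma, adjusted *p* = 0.0297). Its neighbour on chromosome 2, *Itih2*, was at 1.40 to 1.45 with vehicle and at 2.06, 1.88 and 1.38 with PTH, which overlapped (limma, adjusted *p* = 0.468). *Serpine2* and *Serpina1a* on the higher side and *Cst7*, *Serpinb6b* and *Itih5* on the lower side changed at least 2-fold on the log2(FPKM + 1) scale at an unadjusted *p* under 0.05, against 1.24% and 4.35% of all genes, or 5 of 30 members against 5.59% in either direction. All 5 also passed with adjustment, as 0.869% and 3.78% of all genes did. *Serpina1a*, 1 of the 5, reached an FPKM of 1 in PTH libraries only, so the filter set its direction.

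The promoters of 4 called genes are shown because the genes include calls in each direction and none of these windows overlaps an annotated exon. Each is the 250 bases before the transcription start in RefSeq on GRCm38.p6, which is mm10, written on the strand of the gene: *Serpinh1* at chr7:99353240-99353489 (minus), *Serpina1a* at chr12:103863620-103863869 (minus), *Cst7* at chr2:150570165-150570414 (plus) and *Itih5* at chr2:10153293-10153542 (plus). Capitals mark matches on either strand to the CRE core TGACG, the GC box GGGCGG, the AP-1 site TGANTCA, the TATA box TATAAA or the CCAAT box.
Serpinh1: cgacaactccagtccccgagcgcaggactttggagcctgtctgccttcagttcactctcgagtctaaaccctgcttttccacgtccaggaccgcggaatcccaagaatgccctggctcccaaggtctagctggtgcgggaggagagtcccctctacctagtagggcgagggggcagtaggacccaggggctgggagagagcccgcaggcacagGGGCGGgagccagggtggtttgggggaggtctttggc
Serpina1a: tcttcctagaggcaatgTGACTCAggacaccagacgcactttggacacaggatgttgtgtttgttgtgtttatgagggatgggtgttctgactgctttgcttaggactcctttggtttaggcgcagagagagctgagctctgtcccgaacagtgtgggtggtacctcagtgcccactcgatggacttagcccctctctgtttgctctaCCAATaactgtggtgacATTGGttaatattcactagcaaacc
Cst7: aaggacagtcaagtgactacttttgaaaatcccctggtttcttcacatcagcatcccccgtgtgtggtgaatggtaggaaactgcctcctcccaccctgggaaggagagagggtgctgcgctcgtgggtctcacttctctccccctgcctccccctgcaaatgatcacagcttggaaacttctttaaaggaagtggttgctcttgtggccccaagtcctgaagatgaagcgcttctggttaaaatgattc
Itih5: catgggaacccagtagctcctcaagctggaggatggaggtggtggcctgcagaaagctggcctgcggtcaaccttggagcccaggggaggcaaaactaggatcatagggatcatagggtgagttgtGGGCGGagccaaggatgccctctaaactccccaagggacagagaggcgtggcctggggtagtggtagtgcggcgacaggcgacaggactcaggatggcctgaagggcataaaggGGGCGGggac

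*Serpinh1* held 1 GC box, *Itih5* held 2, *Serpina1a* held 1 AP-1 site and 2 CCAAT boxes, and the *Cst7* window held none of the 5 motifs. Entries existed for 25 of the 31 members, 29 windows in all. The CRE core, to which the PTH-responsive factor CREB binds, was in 2 of the 29 windows (6.90%; *Serpina3b* and *Wfdc6a*), against 17.8% of all 32851 windows of the same length. GC boxes were in 11 (37.9% against 32.7%), AP-1 sites in 5 (17.2% against 6.75%), TATA boxes in 2 (6.90% against 12.4%) and CCAAT boxes in 9 (31.0% against 33.8%). The CRE core and the AP-1 site share their first 3 letters, but differ in the fifth and so cannot match at one position on one strand. Windows of the *Serpina* paralogs resemble each other, and some genes have more than 1 window, so the 29 are not independent.

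**Figure D2:**
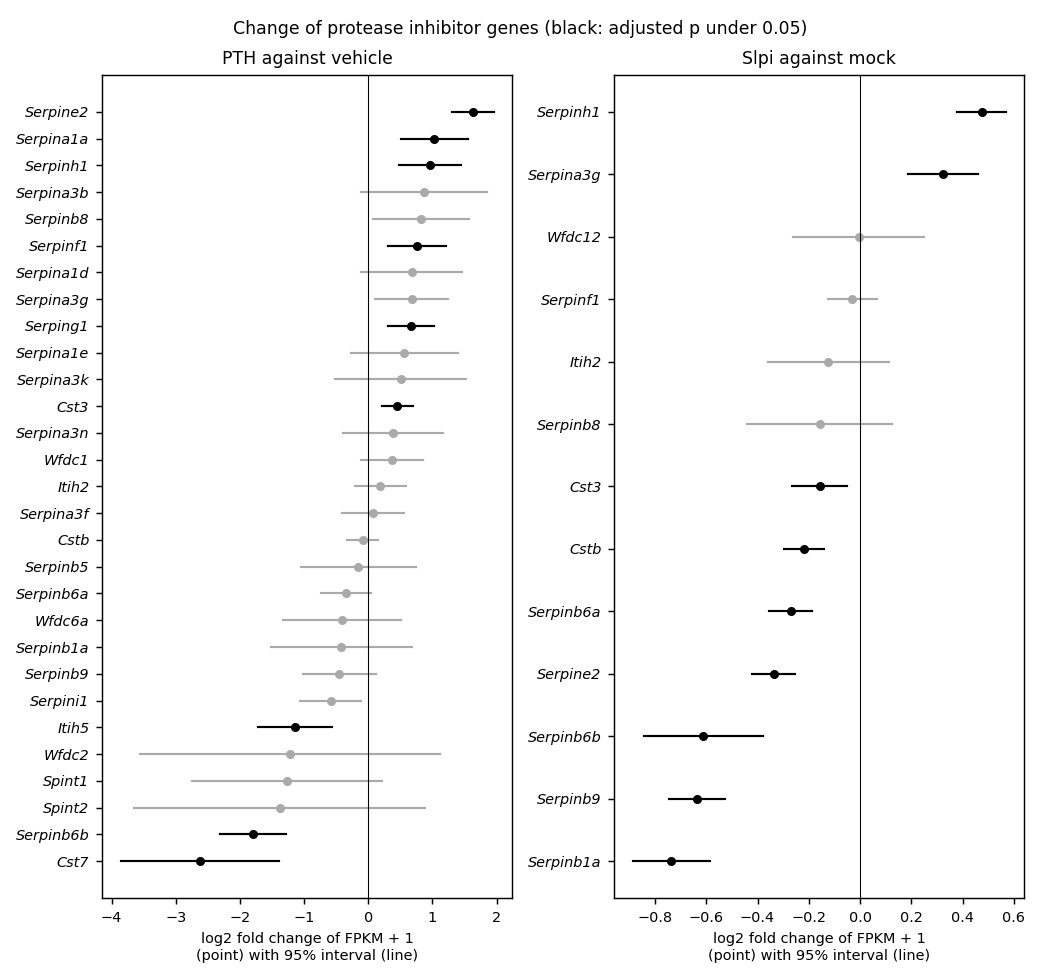
Log2 fold change on the log2(FPKM + 1) scale (point) with its 95% interval from limma (line) for 29 inhibitor genes tested after PTH (left) and 13 tested in MC3T3-E1 cells (right), on separate horizontal scales. Black marks an adjusted p under 0.05 and grey the rest; changes run from -2.62 to 1.63 on the left and from -0.74 to 0.47 on the right.

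Other members did not pass. *Serpinb6a* was at 57.8, 60.4 and 67.2 with vehicle and at 52.8, 56.3 and 37.2 with PTH, without overlap (limma, log2 fold change -0.35, adjusted *p* = 0.181). *Cstb* was at 49.5 to 60.0 with vehicle and 49.3 to 53.8 with PTH, with an interval of the log2 fold change from -0.33 to 0.16. Among low genes, *Serpini1*, which encodes neuroserpin, was at 0.642, 1.09 and 0.959 against 0.239, 0.299 and 0.229, and did not overlap either (limma, log2 fold change -0.59, adjusted *p* = 0.0935). The groups of all 9 called genes did not overlap.

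In the Kunitz inhibitors and in *Wfdc2*, *Serpinb1a* and *Serpinb5*, PTH replicate 3 lay below the other 5 sorted libraries. It was below those 5 in 12 of the 31 members and above them in 11, against 26.6% and 27.0% of all genes. *Spint1* and *Spint2*, membrane inhibitors of matriptase-like proteases known from epithelia, had an FPKM of 5.15, 8.27 and 4.58 and of 13.7, 22.3 and 15.2 with vehicle. With PTH they stood at 2.50, 5.50 and 0 and at 11.8, 19.4 and 0.206. *Wfdc2*, a secreted WAP protein of epithelia, was at 16.3, 11.1 and 21.3 against 13.1, 20.5 and 0.223. In all 3 genes PTH replicate 3 was near 0 while the other PTH libraries stayed at 2.50 or more, and none passed the test (limma, adjusted *p* = 0.205, 0.351 and 0.419). *Serpinb1a*, an inhibitor of neutrophil elastase, was at 19.2 to 20.7 with vehicle and at 21.3 or more in PTH replicates 1 and 2 and 5.67 in PTH replicate 3, and *Serpinb5*, known as maspin, at 0.398, 1.35 and 1.14 against 1.19, 1.32 and 0. Without PTH replicate 3 the log2 fold change of *Spint2* moved from -1.38 to -0.14, that of *Spint1* from -1.27 to -0.52, and those of *Wfdc2*, *Serpinb1a* and *Serpinb5* turned to 0.06, 0.18 and 0.23. The 13 epithelial markers, a list made after the values were seen, summed to 263 to 625 in the other 5 sorted libraries. In PTH replicate 3 they summed to 2.89, with *Krt8* and *Krt19* listed at 0. The sum of the T and NK cell markers was also lowest there, at 1.49. In mock MC3T3-E1 cells the epithelial markers summed to 1.114, 1.235 and 1.096, while *Serpinb1a* stood at 10.7 to 11.4. The part of cells or RNA of any type in these values was not tested.

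**Figure D3:**
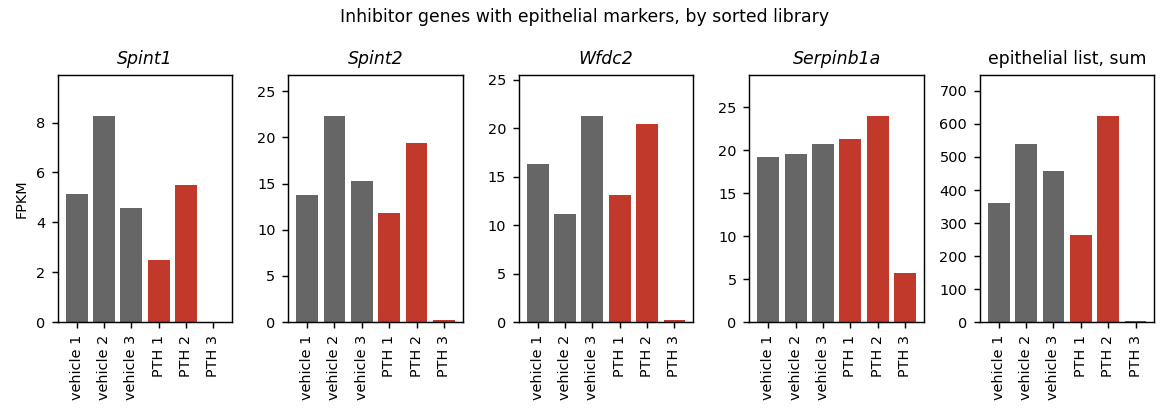
FPKM (vertical axes, from 0) of *Spint1*, *Spint2*, *Wfdc2* and *Serpinb1a* and the summed FPKM of 13 epithelial markers in each sorted library (grey bars, vehicle replicates 1 to 3; red bars, PTH replicates 1 to 3). PTH replicate 3 is at 0, 0.206, 0.223, 5.67 and 2.89, the lowest bar of each panel.

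Several alpha-1-antitrypsin and antichymotrypsin-like genes were low, and 5 of them, namely *Serpina1a*, *Serpina1d*, *Serpina1e*, *Serpina3b* and *Serpina3k*, were tested only because a PTH library reached an FPKM of 1. *Serpina3g* was at 2.16, 1.21 and 1.55 with vehicle and 4.17, 3.51 and 2.09 with PTH (limma, log2 fold change 0.67, adjusted *p* = 0.102). *Serpina1d* was at 0.507, 0 and 0.852 against 1.81, 1.62 and 0.542. *Serpina1e*, *Serpina3b* and *Serpina3k* were listed at 0 in every vehicle library, and with PTH at 0, 0.321 and 1.44, at 0.901, 2.21 and 0, and at 0, 0 and 1.85. *Serpina1e* and *Serpina3k* were highest in PTH replicate 3. The 5 liver markers summed to 19.9 there and to at most 3.94 in the other sorted libraries. *Serpina1d*, *Serpina3b* and *Serpina3g* had their lowest PTH value there. The 5 megakaryocyte and platelet markers summed to 3.51, 7.13 and 4.84 with vehicle and 185, 148 and 6.47 with PTH. The part of such cells or RNA in these values was not tested. *Serpina3n* was at 0.847 to 2.99 against 1.49 to 3.05, and *Serpina3f* at 1.41 to 2.16 against 1.60 to 2.73. All 8 tested genes of the *Serpina* cluster on chromosome 12 (chr12:103614786-104414329) are members, and 1 of the 8, *Serpina1a*, passed. Within the alpha-1-antitrypsin genes, and within the antichymotrypsin-like genes, the members are related copies, so the share of reads that each received is uncertain. *Serpinb8* was at 2.29, 4.46 and 3.62 against 6.81, 4.13 and 10.4 (limma, log2 fold change 0.82, adjusted *p* = 0.121).

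In MC3T3-E1 cells, most tested inhibitors were lower with Slpi overexpression, by small amounts. Of 14 members tested, 8 were lower and 2 higher at an adjusted *p* under 0.05 (limma, Benjamini-Hochberg over 11466 genes). Over all genes 28.9% were lower and 31.9% higher, 60.8% in either direction, so that 10 of 14 members called stands beside a high background. The median log2 fold change was -0.19 for the 14 members and 0.0041 for all genes, and 2 of the 14 were positive, against 50.6% of all genes. The same 10 genes had groups that did not overlap, against 34.9% higher, 32.2% lower and 67.1% in either direction of all genes. On the log2(FPKM + 1) scale no member changed 2-fold, against 0.75% of all genes higher and 0.384% lower at an unadjusted *p* under 0.05. With adjustment the shares of all genes were 0.733% and 0.384%. The FPKM of *Serpinb6b* had a ratio of means of 0.469, but its log2 fold change on that scale was -0.61.

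*Serpinh1* was the member raised most, from 809.5, 805 and 796 in mock to 1167, 1128 and 1057 in Slpi cells. The lowest Slpi library was above every mock library, and the log2 fold change was 0.47 ± 0.04 (SE; limma, adjusted *p* = 3.54e-05). *Serpina3g*, an intracellular inhibitor of cathepsins, rose from 3.43, 3.62 and 3.85 to 4.60, 5.09 and 4.70 (limma, log2 fold change 0.32 ± 0.06, SE, adjusted *p* = 0.00183). Of 9 osteoblast markers tested 7 were higher and 0 lower in the same libraries, where 31.9% of all genes were higher and 28.9% lower. Their part in the change of *Serpinh1* was not tested.

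*Serpine2* fell from 378, 398 and 379.6 to 317, 297 and 299, with a log2 fold change of -0.34 ± 0.04 (SE; limma, adjusted *p* = 0.000113). Its groups did not overlap. The cystatins were lower by less. *Cstb* went from 208.0, 215 and 208.2 to 187, 176 and 178 (limma, log2 fold change -0.22, adjusted *p* = 0.000689) and *Cst3* from 324, 311 and 307 to 301, 269 and 275 (limma, log2 fold change -0.16, adjusted *p* = 0.0182). The change of *Cst3* did not pass without mock replicate 1, Slpi replicate 2 or Slpi replicate 3 (limma, adjusted *p* = 0.0662, 0.0657 and 0.0564). *Serpinb8*, not called with all libraries, passed without Slpi replicate 3 (0.0409).

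*Serpinf1* was at 273, 271 and 262 against 279, 258 and 253, with an interval of the log2 fold change from -0.12 to 0.06 (limma, adjusted *p* = 0.555). *Wfdc12* was at 3.80, 5.33 and 4.48 against 3.99, 4.37 and 5.15, with an interval from -0.26 to 0.25. *Serpinb8* at 1.80, 1.98 and 2.14 against 1.63, 1.25 and 2.19 and *Itih2* at 1.13, 0.888 and 1.19 against 1.12, 0.862 and 0.729 overlapped as well. *Serping1* was below the level needed for a test, at 0.237 to 0.413 in mock and 0.074 to 0.122 in Slpi cells.

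**Figure D4:**
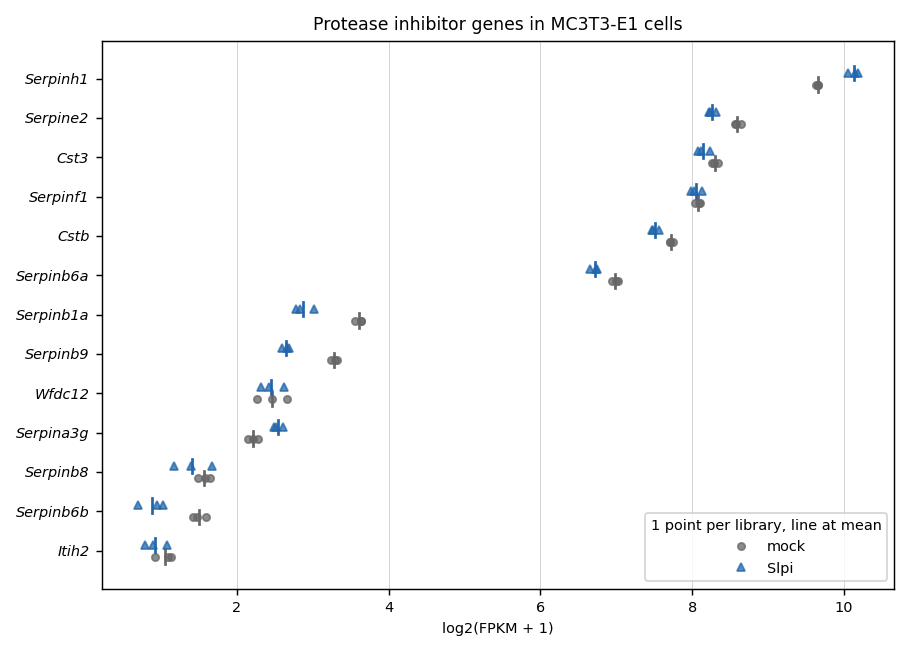
Level of 13 inhibitor genes tested in MC3T3-E1 cells, ordered by their mock mean, as log2(FPKM + 1) on the horizontal axis. Each point is 1 library (circles, mock; triangles, Slpi) and the short line is the mean of 3 libraries on that scale; *Serpinh1* and *Serpina3g* lie higher in all 3 Slpi libraries and 7 genes lie lower, while *Serpinf1*, *Wfdc12*, *Serpinb8* and *Itih2* overlap.

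The lower genes included 4 intracellular serpins that lie together on chromosome 13 (chr13:32842092-34002794 of mm10). *Serpinb1a* had an FPKM of 11.4, 10.7 and 11.4 in mock and 5.85, 6.12 and 7.05 in Slpi cells, a log2 fold change of -0.74 ± 0.07 (SE; limma, adjusted *p* = 4e-05). *Serpinb9*, which encodes an inhibitor of granzyme B, stood at 8.77, 8.97 and 8.45 against 5.30, 5.44 and 5.06, a log2 fold change of -0.64 ± 0.05 (SE; limma, adjusted *p* = 1.81e-05). *Serpinb6b* stood at 2.02, 1.78 and 1.67 against 0.62, 0.92 and 1.03 (limma, log2 fold change -0.61, adjusted *p* = 0.000996). *Serpinb6a* stood at 122, 129 and 126 against 106, 105 and 100.04 (limma, log2 fold change -0.27, adjusted *p* = 0.000312). In each of the 4 every Slpi library was below every mock library. The granzyme B gene *Gzmb*, from the list of serine proteases, was lower too, at 1.53, 1.77 and 1.97 against 0.653, 0.364 and 0.915 (limma, adjusted *p* = 0.00115).

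The region held 7 tested genes in MC3T3-E1 cells, with a median log2 fold change of -0.33. Beside the 4 members, *1110046J04Rik* was lower (limma, log2 fold change -0.33, adjusted *p* = 0.0160), and *Nqo2* at -0.07 and *Ripk1* at 0.06 did not pass. *1110046J04Rik* lies within *Serpinb6a* on the other strand, and whether the authors' counting used strand is not stated, so reads of the pair cannot be told apart. Among 10 genes tested within 1 Mb on either side, 4 were higher and 4 lower, where 31.9% of all genes were higher and 28.9% lower. *Serpinb9b*, under the level for a test, was at 0.888, 0.631 and 0.668 in mock and 0.183, 0.232 and 0.183 in Slpi cells. After PTH the same region held 7 tested genes with a median log2 fold change of -0.35, of which *Serpinb6b* alone passed. *Serpinb9* was at 2.65, 2.55 and 1.14 against 1.36, 1.13 and 1.15 there (limma, log2 fold change -0.45, adjusted *p* = 0.235). *Serpinb6a* with *Serpinb6b*, and *Serpinb9* with *Serpinb9b*, are related copies whose reads may be shared.

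**Figure D5:**
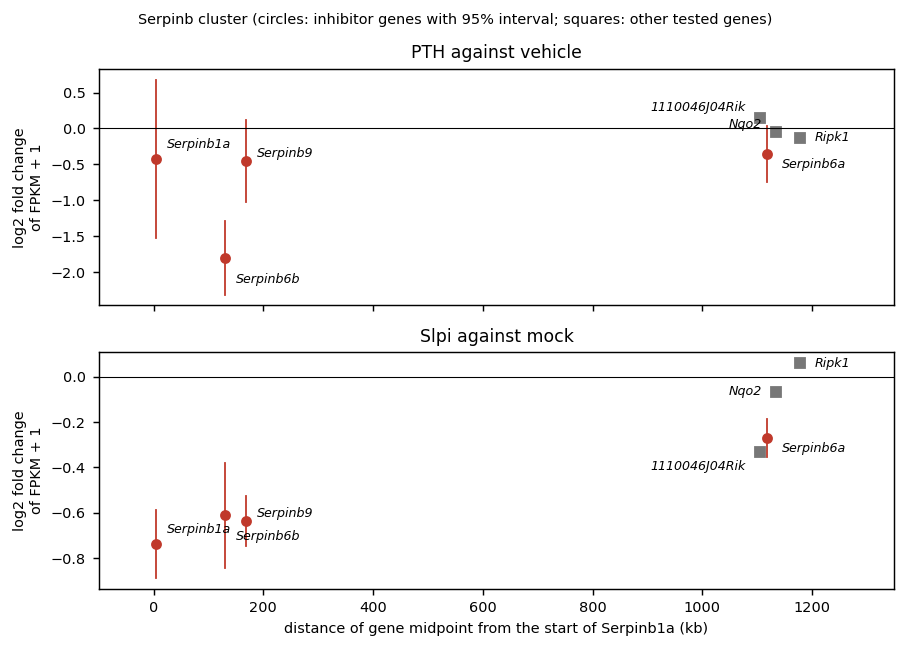
Log2 fold change of FPKM + 1 (vertical axis) of the 7 genes tested in the *Serpinb* cluster against the distance of the gene's midpoint from the start of *Serpinb1a* in kb, after PTH (top) and in Slpi cells (bottom). Circles are inhibitor genes with 95% intervals and squares other genes; all 4 circles lie below 0 with their intervals in the lower panel, and that of *Serpinb6b* does so in the upper panel.

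Both comparisons tested 13 of the members, and they share no libraries. Of these 13, 7 had the same sign in both, against 40.7% of the 10095 genes tested in both. The calls of both comparisons shared 4 members. *Serpinh1* was higher in both, at log2 fold changes of 0.96 and 0.47, and *Serpinb6b* was lower in both, at -1.80 and -0.61. *Serpine2* was higher after PTH and lower with Slpi, at 1.63 and -0.34, and *Cst3* likewise, at 0.45 and -0.16. *Serpinf1* was called after PTH only, at 0.76 against -0.03. The cells, the treatment (PTH in mice or retroviral *Slpi* in culture) and the scaling of the tables differ between the experiments. The difference between the 2 changes was not tested for any gene, nor was a part of *Slpi* in the changes after PTH.

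Proteases and partners of the inhibitors were described from lists. After PTH, 6 of 13 cysteine proteases were higher and 1 lower, where 6.38% of all genes were higher and 8.85% lower. The higher ones were *Ctsb*, *Ctsh*, *Ctsk*, *Ctsl*, *Ctsz* and *Lgmn*, the targets of cystatins such as *Cst3*, and the lower one was *Casp8*. *Ctsk*, the collagen-cleaving cathepsin known from osteoclasts, went from 141, 134 and 154 to 225, 228 and 282 (limma, log2 fold change 0.77, adjusted *p* = 0.0164). Of 14 serine proteases 3 were higher, *Plat*, *Htra1* and *Furin*, and none was lower. *Plat*, the tissue plasminogen activator that *Serpine2* inhibits, went from 48.5, 43.5 and 57.3 to 72.1, 67.4 and 84.5 (limma, log2 fold change 0.58, adjusted *p* = 0.0368). *Elane*, the neutrophil elastase that *Serpinb1a* and *Slpi* inhibit, was at 5.25 to 6.98 with vehicle. With PTH *Elane* was at 73.7, 44.9 and 7.36 (limma, adjusted *p* = 0.0969). This gene is itself on the list of neutrophil markers and is part of their sums. Of 8 receptors and cofactors of serpins 2 were higher, among them *Plaur*, the urokinase receptor, at 66.6 to 78.8 against 151 to 202 (limma, log2 fold change 1.29, adjusted *p* = 0.0131). Of 16 other inhibitors, *Slpi*, *Timp1*, *Timp2* and *Timp3* were higher and *A2m* and *Spock2* lower.

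In Slpi cells, where 31.9% of all genes were higher and 28.9% lower, the counts of these lists stand beside a high background. Of 10 serine proteases 7 were lower, including *Prss23*, *Masp1* and *C1s1*, the complement protease that *Serping1* inhibits, and 2 were higher, the plasminogen activators *Plat* and *Plau*. *Plat* went from 25.5, 26.9 and 25.9 to 30.9, 30.0 and 27.8 (limma, log2 fold change 0.17, adjusted *p* = 0.0110) in the libraries where *Serpine2* was lower. Of 11 cysteine proteases 6 were lower, among them *Ctsb*, *Ctsl*, *Ctsz* and *Lgmn*, and 3 were higher. Of 9 other inhibitors 5 were lower and 2 higher. Of 7 receptors and cofactors 3 were lower, among them *Lrp1*, the receptor that clears serpin-protease complexes, and 3 higher.

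Most symbols of these families did not reach the level. Of the 70 that did not, 38 were at 0 in all 12 libraries. Just outside the rule were *Serpinb2*, *Serpinb9b*, *Serpina12*, *Serpina1b* and *Serpinc1*, with a highest FPKM of 0.951, 0.888, 0.884, 0.820 and 0.628. Just inside were *Serpini1*, *Serpinb5*, *Serpina1e*, *Serpina1a* and *Serpina1d*, with 1.09, 1.35, 1.44, 1.48 and 1.81. The level was reached in 1 library only by 4 members and in all 12 by 11.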

How the data were processed

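Per gene and library, the values deposited by the authors are FPKM. Per the methods and the submitters' processing notes, single-end reads were mapped to mm10 with TopHat 2.0.13, Bowtie2 2.2.3 and SAMtools 0.1.19, and FPKM were calculated with Cuffnorm of Cufflinks 2.2.1. The gene annotation, the scaling option and use of strand are not given in the sources used here. Sorted osteoblasts were amplified with SMART-Seq v4. For MC3T3-E1 cells the labels name a stranded TruSeq kit and the methods SMART-Seq v4. Cuffnorm values are not counts, so no count test was run, and depth and counting error are unknown.

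Each experiment was fitted alone, 3 libraries against 3, on log2(FPKM + 1), which understates changes of low genes. A gene entered the test when 1 or more of its 6 values reached 1. Moderated linear models came from limma 3.58.1 (R 4.3.3, eBayes, trend on), with Benjamini-Hochberg adjustment over every gene tested. A gene was called at an adjusted *p* under 0.05. The labels do not say whether replicates are separate animals or cultures (per the methods, sorted replicates were different mice), so *p* values measure the spread between these libraries. An exact two-sided permutation test of 3 against 3 cannot go below 0.10. The script was tested on simulated data. Python 3.11.15 with pandas 2.3.3 and numpy 2.4.6 made the other tables.

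The members, lists and tests were chosen with earlier results of these data known. Named were all called members, the 5 most abundant per experiment, members changed 2-fold at an unadjusted *p* under 0.05, and *Serpinh1*, *Serpinf1*, *Serpine2*, *Serping1*, *Cst3*, *Cstb*, *Spint1*, *Spint2*, *Itih5* and *Wfdc2*; other members, proteases and markers were named after their values were seen. The values of 1 member are not reported here, but it is in the counts. Genes were placed with GENCODE M21, and promoters are RefSeq windows on GRCm38.p6. Alternatives tried were all genes without a filter, a filter on the mean (1 or more), the replicate number as block, 0.1 as pseudocount, eBayes without trend, an unmoderated linear model, quantile normalization, a 2-fold rule at an unadjusted *p* under 0.05, and leaving out each library.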

Additional observations from a re-analysis of the deposited data

How the results depend on the processing

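The counts after PTH moved by over 1.5 times under several fits, and those in Slpi cells under the 2-fold rule; in Slpi cells the unmoderated linear model called 7 lower in place of 8. Of 6 members higher and 3 lower after PTH, limma called 0 and 0 without the filter on low values (5 and 4 at an unadjusted *p* under 0.05; 10 and 8 of all genes adjusted), and 0 and 0 in an unmoderated linear model (6 and 4 unadjusted; 0 and 1 of all genes). Without the trend 3 were higher. At least 2-fold on the log2(FPKM + 1) scale at an unadjusted *p* under 0.05, 2 were higher after PTH. In Slpi cells that rule gave 0 higher and 0 lower, against 2 and 8 in limma. With 1 library left out, the counts were 0 to 6 higher and 0 to 3 lower after PTH, and 2 to 2 higher and 7 to 8 lower in Slpi cells. All genes called after PTH fell to 1 higher and 0 lower without vehicle replicate 1 and to 0 and 0 without vehicle replicate 2, and were 172 and 405 without PTH replicate 1; beyond the fewer libraries, the cause was not tested. *Wfdc12* turned from -0.01 to 0.03 on the log2 scale under quantile normalization in Slpi cells, and its values with 1 library left out ran from -0.10 to 0.10. After PTH those of *Serpina3f* ran from -0.077 to 0.18, those of *Serpinb1a* from -0.77 to 0.18, those of *Serpinb5* from -0.38 to 0.23 and those of *Wfdc2* from -2.01 to 0.061. Over the single genes, 316 of the alternative values after PTH kept direction and side of the threshold, 53 lost the call, 5 gained one and 5 turned. In Slpi cells these were 171, 5, 1 and 4. Only called members could lose a call, so the 316 and 171 include values of uncalled members that stayed uncalled. Deviations of same-numbered libraries from their group means correlated at 0.029, 0.073 and 0.102 in sorted cells. Those of unlike-numbered libraries there ran from -0.116 to 0.069. In MC3T3-E1 cells the values were 0.039, -0.052 and -0.000, against -0.099 to 0.105. Deviations within a group add up to 0, so these correlations cannot decide whether the replicate numbers pair the samples. With the replicate block 6 were higher and 3 lower after PTH and 2 and 8 in Slpi cells, while all genes called after PTH went from 830 and 1151 to 1028 and 1234.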
